A study of Homo sapiens with 26 samples.

Results

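Compound 40 is 1 of 4 small molecules, known in the labels only by number, studied as inhibitors of HIF-2a translation in 786-O cells, an established human clear cell renal carcinoma line. The comparison was between the 3 arrays of cells given compound 40 and the 3 arrays of cells given DMSO, the vehicle, as the titles name them; these are 6 of the 26 arrays of the study. Each array was an Affymetrix U133 Plus 2.0 chip hybridised with biotin-labelled cRNA, and all 54675 probe sets of the deposited table were considered. Of these, 35013 probe sets passed a filter on low signals, and they stood for 15124 genes, each represented by its brightest single-gene probe set. The 3 Blk arrays, taken by elimination as the untreated cells of the series text, served as a further control, and compounds 41, 76 and 77 with 3 arrays each were set beside compound 40. The labels give neither dose nor exposure time, nor whether replicates were separate cultures. Each p-value rests on how far arrays scatter within the 8 groups of 3 fitted together, possibly for technical reasons only. Those groups include the arrays titled WT8 and PRC3, so the spread is not that of the compound 40 and DMSO arrays alone.

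786-O cells lack working VHL, the ubiquitin ligase subunit that marks hydroxylated HIF-a proteins for destruction, and so they keep HIF-2a, the product of EPAS1, in normal oxygen. HIF-2a pairs with ARNT and switches on genes of blood vessel growth, glucose uptake and the cell cycle, among them VEGFA and CCND1 in this tumour type. NRF2, the product of NFE2L2, is held low by KEAP1 until reactive molecules modify KEAP1, and then switches on detoxifying enzymes, glutathione synthesis and NADPH supply through antioxidant response elements.

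The antioxidant response element core was looked for in the promoters of the genes that changed, since members of the NRF2 target list moved together. The letters searched were TGACNNNGC on both strands, from 250 bases before to 50 bases after each RefSeq gene start (GRCh38.p14). They stood in 5 of the 18 promoters found for NRF2 targets that rose, in 7 of 37 for the other genes that rose, and in 4 of 47 for genes that fell, against 1810 of the 12064 promoters of genes tested and 13.6% of all 27305 promoters. The 5 windows follow from RefSeq, 5′ to 3′ on the gene's strand, with the core in capitals. They lie before the start of PGD (chr1:10398855-10398879, plus strand), TXNRD1 (chr12:104215672-104215696, plus strand), GCLM (chr1:93909448-93909472, minus strand), ME1 (chr6:83431172-83431196, minus strand) and CBR1 (chr21:36069857-36069881, plus strand).
PGD: tcgccgggGCAATGTCAtctaggtg
TXNRD1: acgggctaTGACTTCGCtgttgtca
GCLM: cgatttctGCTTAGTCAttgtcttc
ME1: tcctgccaTGACTCAGCgcttctcg
CBR1: cgggttctGCAAAGTCAggctagct
In PGD, GCLM and CBR1 the core reads on the opposite strand, and in ME1 it also holds the letters TGACTCA of an AP-1 site. A match is a description of the sequence and was not tested as a binding site.

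Compound 40 replicates 2 and 3 stood apart in how their values were made. Every other array had a deposited mean signal of 143, while these had means of 166 and 174. On every other array at least 98.1% of values lay on multiples of a decimal step of that array. The best step found for these arrays held 10.3% and 10.4%, about the share that values without steps would give. Signals were therefore quantile normalised between arrays, and replicate 1, the only one made like the rest, was also tested alone. Replicate 2 also had 20.8% of its retained values at the floor of 20, against 16.7% to 18.5% on the other arrays, and its mean correlation with the DMSO arrays was 0.935, against 0.963 and 0.961 for replicates 1 and 3. The 3′ to 5′ signal ratio of ACTB, a measure of RNA integrity, was 1.09, 1.32 and 1.25 in compound 40 replicates 1 to 3 and 1.03 to 1.10 with DMSO; its part in the results was not tested. Of the 8 renal tubule and renal carcinoma markers tested, 5 were above a signal of 100 on all 6 arrays, with a summed level of 11300 to 11800 with DMSO and 10900 to 12000 with compound 40. Markers of endothelial, blood, melanocyte and liver cells reached at most 89.1, while the summed level of 4 fibroblast markers was 213 to 266 with DMSO and 95.1 to 185 with compound 40, with DCN, LUM and COL1A2 down to the floor of 20 on some arrays; the part of these markers in any result was not tested.

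With compound 40, genes of the NRF2 response rose most, led by AKR1B10, AKR1C3 and HMOX1, and VEGFA, CCND1 and 3 metallothioneins were among the genes that fell. In all, 240 of 35013 probe sets (0.685%) passed an adjusted p of 0.05 in limma, 119 of them higher (0.34%) and 121 lower (0.346%). Per gene, 128 were called (0.846%): 66 rose (0.436% of genes tested) and 62 fell (0.41%), of which 28 and 27 changed at least 2-fold. Over all genes the median log2 change was 0, and the 3 compound 40 arrays lay entirely above the 3 DMSO arrays for 7.63% of genes and entirely below for 7.85%. The median size of change among the 240 probe sets was 0.89 on the log2 scale in replicate 1, 1.08 in replicate 2 and 0.92 in replicate 3, and 239 of them lay outside the DMSO range on all 3 arrays. These probe sets were picked by their difference on the same arrays, so these figures are no separate check of any array. With replicate 1 alone 25 probe sets were called, and leaving out 1 array gave between 50 (without DMSO replicate 2) and 622 (without compound 40 replicate 1); 70 were called without compound 40 replicate 2, 98 without DMSO replicate 1, 122 without DMSO replicate 3 and 139 without compound 40 replicate 3. Of the 48 genes named below and called against DMSO, 7 were also called with replicate 1 alone (HMOX1, NQO1, AKR1C2, MGST1, GCLM, MT1H and MT1F), and none of the other 41 changed direction there. Against Blk, a comparison that shares the compound 40 arrays, 341 probe sets were called (0.974%).

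**Figure D1:**
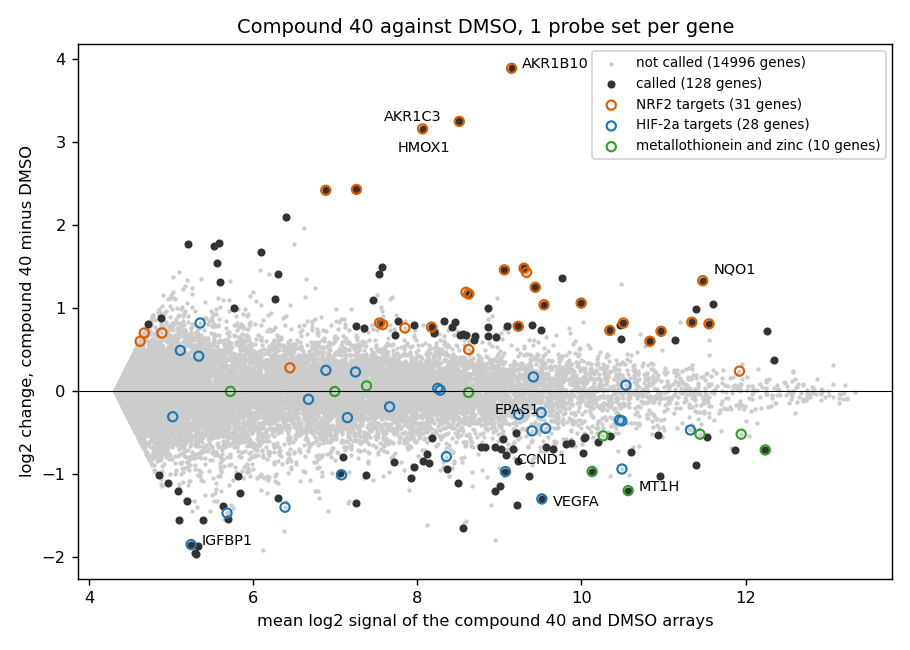
Log2 change of compound 40 against DMSO (vertical) by mean log2 normalised signal (horizontal) for 15124 genes, 1 probe set each; black points are the 128 called genes, and rings mark 3 gene lists. The NRF2 targets (orange) all lie above 0 and reach 3.89, EPAS1 lies near 0, and VEGFA, CCND1, IGFBP1 and MT1H are among the called genes below 0.

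Of the 31 NRF2 targets tested, 21 rose and none fell, against 0.436% of all genes rising. All 31 had a log2 change above 0, with a median of 0.82 and a range of 0.24 to 3.89, where the median of all genes was 0. On 29 of the 31 the compound 40 arrays lay entirely above the DMSO arrays, against 7.63% of all genes. The list was chosen with earlier results of these data known. The count fell to 11 without DMSO replicate 2 or without compound 40 replicate 2, to 13 with median scaling and to 5 with replicate 1 alone, while the median with replicate 1 alone was 0.96. Against Blk, 21 members were called higher (0.569% of all genes) with a median of 0.91.

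**Figure D2:**
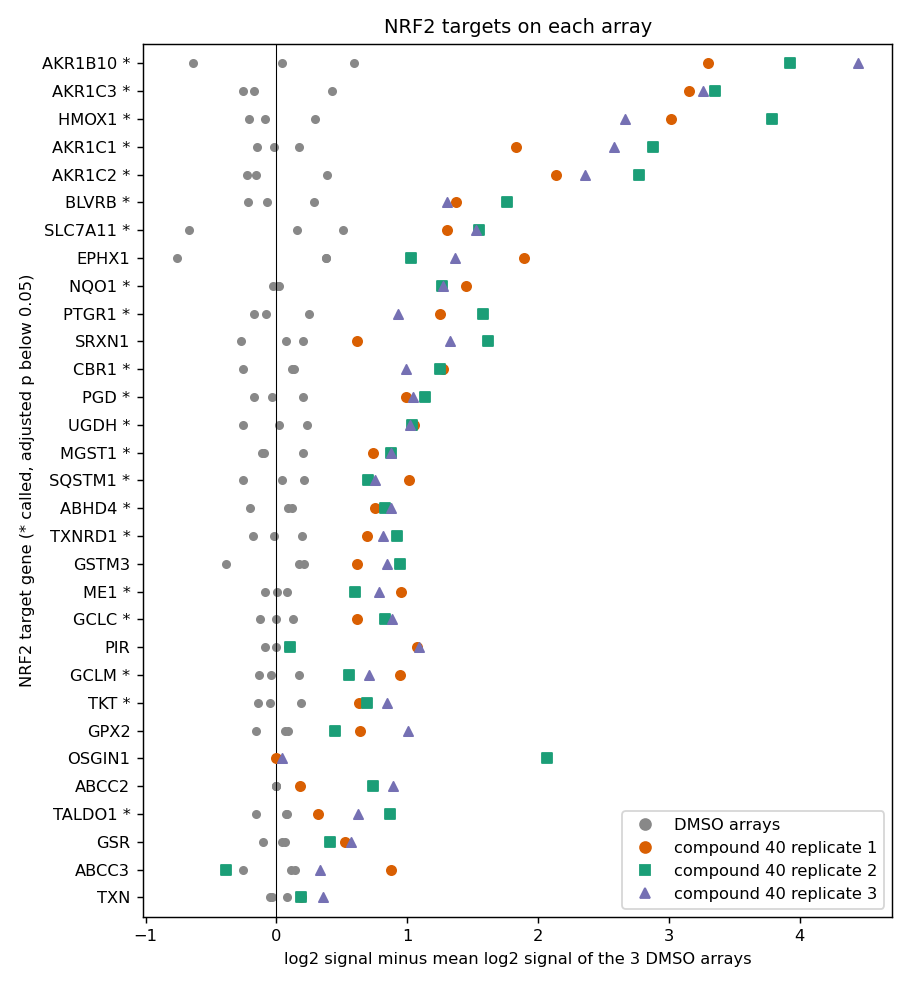
Log2 normalised signal of each NRF2 target on each array, minus the mean of the 3 DMSO arrays (horizontal); grey points are DMSO arrays, coloured symbols compound 40 replicates 1 to 3, and an asterisk marks called genes. AKR1B10, AKR1C3 and HMOX1 lie furthest right on all 3 compound 40 arrays, and the rise of OSGIN1 rests on replicate 2.

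Several of the NRF2 targets that rose are enzymes that reduce carbonyls and quinones. AKR1B10, an aldo-keto reductase of retinal and other aldehydes, measured 95, 152 and 222 with DMSO and 1450, 2240 and 3220 with compound 40, normalised signals of replicates 1 to 3. Every treated array was above every DMSO array, by 14.8-fold on average (log2 change 3.89, SE 0.49, adjusted p = 0.000161). AKR1C3, which reduces steroids and prostaglandins, went from 105, 98.9 and 159 to 1050, 1210 and 1130, a rise of 9.54-fold (log2 3.25, SE 0.45, adjusted p = 0.000463). Its treated arrays were close together, and the groups did not overlap. AKR1C2 rose 5.36-fold (adjusted p = 5.05e-05) and AKR1C1 5.39-fold (adjusted p = 0.000655), but the transcripts of this family are so alike that probe sets may read more than 1 of them. NQO1, the quinone reductase used as a marker of NRF2 activity, measured 1770, 1810 and 1820 with DMSO and 4910, 4330 and 4360 with compound 40. The 3 arrays of each group were close together and the groups far apart, at 2.51-fold (log2 1.33, SE 0.13, adjusted p = 3.41e-06), and its other 2 probe sets gave 1.82 and 1.30. PTGR1, which reduces prostaglandins and alkenals, rose 2.38-fold (adjusted p = 0.00455) and CBR1, a carbonyl reductase, 2.25-fold (adjusted p = 0.0175). MGST1, a membrane glutathione transferase, rose 1.78-fold (adjusted p = 7.02e-05) and UGDH, which makes the UDP-glucuronate used in glucuronidation, 2.05-fold (adjusted p = 0.00416). Of these 9 genes, only CBR1 lost its call when 1 array was left out, without DMSO replicate 1 or 2 or compound 40 replicate 2, at log2 changes no smaller than 1.04.

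HMOX1, which breaks down heme to biliverdin, iron and carbon monoxide, had the smallest adjusted p of the NRF2 targets. It measured 110, 77.8 and 84.6 with DMSO and 725, 1240 and 568 with compound 40. All 3 treated arrays were well above the DMSO arrays, replicate 2 most of all, and the mean rise was 8.91-fold (log2 3.16, SE 0.27, adjusted p = 1.52e-06). It was called in each of the 6 fits that left out 1 array and with replicate 1 alone. BLVRB, biliverdin reductase B, rose 2.79-fold from 461, 325 and 359 to 980, 1280 and 934 (log2 1.48, SE 0.29, adjusted p = 0.0139). ALAS1, the first enzyme of heme synthesis, rose 1.63-fold from 217, 231 and 248 to 313, 450 and 382 (log2 0.70, SE 0.17, adjusted p = 0.0459). BLVRB lost its call without DMSO replicate 2 or 3 or compound 40 replicate 2 (1.34 or more). ALAS1 lost its call without any single array except compound 40 replicate 1 (0.58 or more). HMOX1, BLVRB and ALAS1 were the called members among 16 heme genes tested, where 0.436% of all genes rose. The median of the list was 0.02. BLVRA, biliverdin reductase A, had a log2 change of 0.28 (adjusted p = 0.595). Its other probe sets gave -0.087, 0.28 and 0.078, none of them called. ABCG2, a porphyrin exporter, had a log2 change of 0.78 with non-overlapping arrays but an adjusted p of 0.207.

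GCLM, GCLC, SLC7A11 and TXNRD1, of glutathione and thioredoxin metabolism, rose as well. GCLM, the modifier subunit of the enzyme that starts glutathione synthesis, measured 918, 1140 and 983 with DMSO and 1940, 1480 and 1650 with compound 40, a rise of 1.66-fold (log2 0.73, SE 0.11, adjusted p = 0.00211). GCLC, its catalytic subunit, rose 1.71-fold (log2 0.77, SE 0.15, adjusted p = 0.0115). Dimmer probe sets gave 0.59 and 0.74 for GCLM and 0.58 and -0.22 for GCLC, none of them called. SLC7A11, the cystine importer that feeds the pathway, measured 459, 359 and 203 with DMSO and 796, 942 and 930 with compound 40. Its DMSO arrays were spread, but all lay below the treated arrays, and the change was 2.75-fold (log2 1.46, SE 0.30, adjusted p = 0.019). TXNRD1, thioredoxin reductase, rose 1.75-fold from 2010, 2610 and 2240 to 3680, 4300 and 3990 (log2 0.81, SE 0.15, adjusted p = 0.00828). GCLM stayed called whichever array was left out. GCLC lost its call without DMSO replicate 1 or 2 or compound 40 replicate 2 or 3 (0.71 or more), TXNRD1 without DMSO replicate 1 or compound 40 replicate 2 (0.72 or more), and SLC7A11 without DMSO replicate 2 or 3 or compound 40 replicate 2 or 3 (1.13 or more).

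Among enzymes that make NADPH, PGD and ME1 rose. PGD, of the pentose phosphate pathway, measured 816, 629 and 692 with DMSO and 1410, 1560 and 1460 with compound 40, 2.08-fold higher (log2 1.06, SE 0.21, adjusted p = 0.0145). ME1, the cytosolic malic enzyme, rose 1.72-fold (adjusted p = 0.0232). Another ME1 probe set had means of 248 with DMSO and 319 with compound 40 and was not called (log2 0.21, adjusted p = 0.827). A dim one gave 0.047. In the non-oxidative branch of the pathway, which exchanges sugar phosphates, TKT rose 1.65-fold (adjusted p = 0.042) and TALDO1 1.52-fold (adjusted p = 0.0115). An equally bright TKT probe set gave a log2 change of 0.45 and a dimmer one 0.52, neither of them called. TALDO1 had its smallest change in replicate 1, where it measured 1850 against 2710 and 2280 in the other two and 1330 to 1570 with DMSO. SQSTM1, the autophagy receptor that binds KEAP1, rose 1.76-fold (adjusted p = 0.0397), as did ABHD4, a lipase, by 1.76-fold (adjusted p = 0.0458). Other SQSTM1 probe sets, all dimmer, gave 0.78, 0.25, -0.37 and -0.51, none of them called. Left out singly, DMSO replicates 2 and 3 and compound 40 replicate 2 each ended the call of PGD (0.97 or more). DMSO replicate 2 and compound 40 replicate 2 each ended that of TALDO1 (0.47 or more). TKT (0.66) and ABHD4 (0.72) were called only with all arrays or without compound 40 replicate 1, ME1 (0.69) only with all arrays or without compound 40 replicate 2, and SQSTM1 (0.69) only with all arrays; the values are the smallest log2 changes reached.

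The other 10 NRF2 targets did not pass the test. EPHX1, the microsomal epoxide hydrolase, measured 511, 232 and 511 with DMSO and 1460, 801 and 1010 with compound 40 (log2 1.43, 95% interval 0.67 to 2.19, adjusted p = 0.0751). SRXN1, sulfiredoxin, measured 212, 294 and 269 against 392, 786 and 643 (log2 1.19, adjusted p = 0.0576) and was called against Blk (log2 1.41, adjusted p = 0.0159; lost without Blk replicate 1 or 3 or compound 40 replicate 2 or 3, at 1.2 or more). On both genes the treated arrays lay above all DMSO arrays. OSGIN1 was at the floor of 20 on all DMSO arrays and measured 20, 83.9 and 20.6 with compound 40, a rise on replicate 2 alone. GSTM3, PIR, GPX2, ABCC2, GSR, ABCC3 and TXN had log2 changes of 0.24 to 0.80 with adjusted p-values of 0.177 to 0.766. With the replicate number as a block in limma, EPHX1, SRXN1 and GSTM3 were called (adjusted p = 0.00383, 0.000595 and 0.0357). None of 7 NRF2 regulators was called by limma, and 2 were higher at an unadjusted p under 0.05 (5.85% of all genes were). NFE2L2 had a log2 change of 0.17, KEAP1 0.53 and MAFG, a small partner of NRF2, 0.99 (adjusted p = 0.105).

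EPAS1 mRNA, which encodes HIF-2a, did not differ beyond the spread between arrays. It measured 556, 402 and 434 with DMSO and 535, 418 and 386 with compound 40, ranges that overlap, and the log2 change was -0.057 (95% interval -0.55 to 0.44, adjusted p = 0.971). Its second probe set gave -0.22. Arrays read mRNA only, so the amount of HIF-2a protein was not measured. VHL measured 58, 54.3 and 56.3 against 48.8, 50.6 and 48.7 (log2 -0.19, adjusted p = 0.854), and ARNT, also near the floor, had a log2 change of -0.51 (adjusted p = 0.658), while its other 4 probe sets gave 0.77, 0.09, 0.35 and 0.21, none of them called. The probe set of HIF1A did not pass the filter on low signals.

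VEGFA, CCND1 and IGFBP1 fell among the 28 HIF-2a targets tested, and none rose; 0.41% of all genes fell. At an unadjusted p under 0.05 in limma 0 targets were higher and 8 lower (6.72% of all genes were), and 4 lay entirely below the DMSO arrays (7.85% of all genes did). VEGFA, the main growth factor of blood vessels, measured 1440, 1140 and 926 with DMSO and 731, 368 and 380 with compound 40. All treated arrays were below all DMSO arrays, and the mean fall was 2.46-fold (log2 -1.30, SE 0.29, adjusted p = 0.0366). Replicate 1 was the highest array in both groups. With the replicate number as a block, limma gave an SE of 0.18 and an adjusted p of 0.000284. The other 3 VEGFA probe sets were also below 0, at -0.69, -0.74 and -0.62, but were not called. CCND1, the cyclin D1 gene that drives entry into the cell cycle, measured 677, 959 and 664 with DMSO and 553, 322 and 321 with compound 40. Here too replicate 1 was the highest treated array and lay close under the DMSO range; the mean fall was 1.96-fold (log2 -0.97, SE 0.19, adjusted p = 0.0158), and the second probe set gave -0.49 and was not called. IGFBP1, an insulin-like growth factor binding protein, measured 53, 83.9 and 83.6 with DMSO and lay at the floor of 20 on all compound 40 arrays, at least 3.60-fold lower (adjusted p = 0.0323). Of these 3 genes none was called with replicate 1 alone, where the log2 changes were -0.65 for VEGFA and -0.45 for CCND1. Among the fits with 1 array left out, VEGFA and IGFBP1 were called only without compound 40 replicate 1 (-1.12 and -1.73 nearest to 0). CCND1 lost its call without DMSO replicate 2 or compound 40 replicate 2 or 3 (-0.80).

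The remaining 25 HIF-2a targets did not pass, and the median of the list was -0.32 (-0.15 with replicate 1 alone), with 19 of 28 below 0. The count was 0 without DMSO replicate 2 or compound 40 replicate 2 or 3, and 1 without DMSO replicate 1 or 3; against Blk it was 4, where 0.615% of all genes were lower. ITPR1, an intracellular calcium channel, was low on every treated array at 60.2, 20 and 24.4 against 90.5, 69.8 and 98.7 (log2 -1.47, adjusted p = 0.105), and was called against Blk (log2 -2.08, adjusted p = 0.0108; lost without Blk replicate 3 or compound 40 replicate 2 or 3, -1.77). EDN1 had a log2 change of -1.40, CXCR4 -1.01, IGFBP3 -0.94 and EGLN3 -0.79, but their DMSO arrays were widely spread and overlapped the treated ones. SLC2A1, the glucose transporter, measured 1010, 876 and 784 against 786, 693 and 498 (log2 -0.45, 95% interval -0.79 to -0.11, adjusted p = 0.249). EGLN1, PLIN2, MXI1 and BNIP3 had log2 changes between 0.0099 and 0.17. ANGPTL4, LOX and EPO were dim and had changes of 0.82, 0.42 and 0.49, none of them called. The hypoxia response element core ACGTG, searched on both strands, stood in 10 of the 24 promoters found for the list and in 25.2% of those of all genes tested; neither VEGFA nor CCND1 was among the 10.

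**Figure D3:**
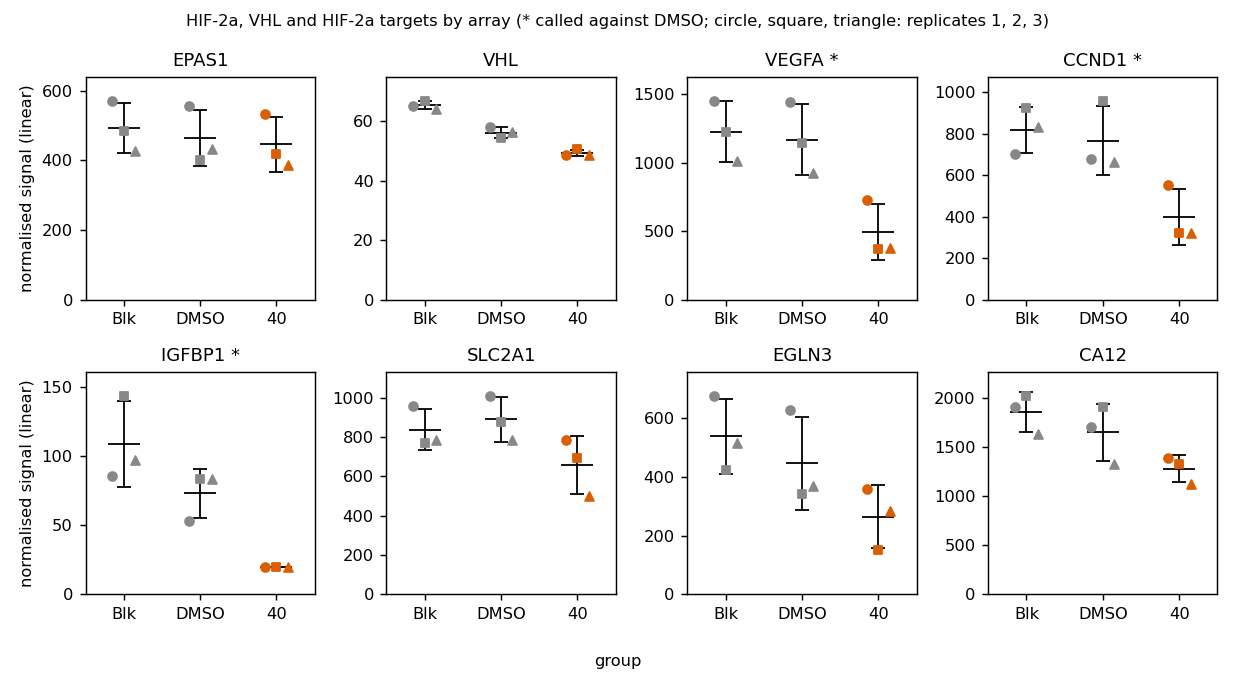
Normalised signal on a linear scale of EPAS1, VHL and 6 HIF-2a targets on each Blk, DMSO and compound 40 array; symbols are replicates 1 to 3, and lines with bars are the mean and SD of 3 arrays. EPAS1 overlaps between groups, and in VEGFA and CCND1 replicate 1 of compound 40 (731 and 553) lies above replicates 2 and 3. In VEGFA replicate 1 is also the highest DMSO array.

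Iron genes showed no called change at the level of their brightest probe sets. None of the 16 tested passed in limma, 3 were higher at an unadjusted p under 0.05 (5.85% of all genes were), and the median was 0.10. TFRC, the transferrin receptor, measured 1670, 1700 and 1930 with DMSO and 2850, 3360 and 3210 with compound 40, above on every array, with a log2 change of 0.83 (95% interval 0.31 to 1.36, adjusted p = 0.146). Of its other 3 probe sets 1 was called (1.27, adjusted p = 0.0323), 1 was not (1.09, adjusted p = 0.0707) and a dim one gave -0.38. FTL, ferritin light chain, measured 7890, 7520 and 7750 against 9770, 9330 and 9530 (log2 0.31, adjusted p = 0.255). Its second probe set had means of 3890 and 6550 (log2 0.76, adjusted p = 0.144) and was not called. The first was called against Blk (log2 0.54, adjusted p = 0.0171, lost without Blk replicate 2 or compound 40 replicate 2, at 0.49 or more). FTH1P5, a ferritin pseudogene named after its values were seen, went from 3950, 3960 and 3630 to 6760, 6020 and 6210 (log2 0.72, adjusted p = 0.000252), and its probe set cannot be told apart from near-identical copies of that family.

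Metallothioneins are small proteins that bind zinc and copper. Of the 10 genes on the metallothionein and zinc list, MT1H, MT1F and MT2A fell (0.41% of all genes fell) and the median was -0.52. MT1H measured 2120, 2750 and 2110 with DMSO and 770, 1070 and 1220 with compound 40, 2.30-fold lower (log2 -1.20, SE 0.19, adjusted p = 0.00178), and was called whichever array was left out and with replicate 1 alone. The groups were clearly apart, and replicate 1 was the lowest. MT2A, the most abundant member, fell 1.64-fold from 5430, 6930 and 6320 to 3320, 4250 and 3830 (log2 -0.71, adjusted p = 0.0137), and MT1F 1.95-fold (log2 -0.97, adjusted p = 0.0232). MT1E and MT1X were also lower on every array (-0.52 each) with adjusted p-values of 0.0828 and 0.0788. MT1G (-0.54) overlapped, while the transporters SLC30A1 and SLC39A10 and the regulator MTF1 had changes between -0.017 and 0.062. The transcripts of the metallothioneins are near-identical, so their probe sets may not be independent. MT2A lost its call without DMSO replicate 2 or 3 (-0.62) and MT1F without any single array except compound 40 replicate 2 (-0.72); the count of the list was 1 without either of those DMSO arrays, and 1 with median scaling or with signals as deposited.

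Among genes of cell division few were called. Among 22 mitosis genes none was called, while 21 had a log2 change below 0 and 11 lay entirely below the DMSO arrays (7.85% of all genes did); 7 were lower at an unadjusted p under 0.05 in limma (6.72% of all genes), and the median was -0.24. TOP2A, the topoisomerase of dividing cells, measured 1230, 1140 and 1160 against 870, 697 and 950 (log2 -0.50, adjusted p = 0.0728), and NUSAP1, a spindle protein, had -0.45 (adjusted p = 0.101). MCM7, a subunit of the replicative helicase, fell 2.05-fold from 883, 942 and 990 to 407, 470 and 503 (log2 -1.03, SE 0.20, adjusted p = 0.0126). It was the only called member of 21 DNA replication genes (median -0.19), where 0.41% of all genes fell. At an unadjusted p under 0.05 in limma 4 of the 21 were lower and 0 higher (6.72% and 5.85% of all genes were). MCM2, MCM3, MCM5 and MCM6 had changes between -0.19 and 0.015. LMNB1, a lamin of the nuclear envelope, fell 2.32-fold from 549, 825 and 927 to 361, 326 and 286 (adjusted p = 0.00797), and MRE11, a nuclease of double-strand break repair, fell 1.99-fold (adjusted p = 0.0113). MCM7 lost its call without DMSO replicate 2 or 3 or compound 40 replicate 2 (-0.95), LMNB1 without DMSO replicate 2 or 3 (-1.06) and MRE11 without DMSO replicate 2 or compound 40 replicate 2 (-0.86).

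Interferon response genes had the lowest median of the 28 pathway lists, -0.57, with 17 of 19 below 0 and 8 entirely below the DMSO arrays (7.85% of all genes were). OAS3, an antiviral sensor of double-stranded RNA, was the only one called, where 0.41% of all genes fell, and fell 1.79-fold from 379, 391 and 310 to 237, 218 and 155 (log2 -0.84, SE 0.18, adjusted p = 0.0304). MX1 had -1.54, OAS1 -1.18 and IRF7 -1.09, with adjusted p-values of 0.0865 to 0.164 at signals of 103 or less. OAS3 lost its call without DMSO replicate 1 or 2 or compound 40 replicate 2 or 3 (-0.66 nearest to 0). TNFSF10, the death ligand TRAIL and itself interferon-inducible, fell 2.04-fold from 3230, 2830 and 2500 to 1900, 1130 and 1240 (log2 -1.03, SE 0.17, adjusted p = 0.00307), was called whichever array was left out, and its other 2 probe sets were called at -1.39 and -1.67.

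Other lists had few called members or none. No member of the p53 target (17), NF-kB and cytokine (19), ER chaperone (18), heat shock (14), apoptosis (16), glycolysis (21), respiratory chain (18) or cholesterol synthesis (14) lists was called; the numbers are genes tested, and their medians lay between -0.33 and 0.12. At an unadjusted p under 0.05 in limma each of them held at most 2 higher and 3 lower genes (5.85% and 6.72% of all genes were). PSMC4 was the only called proteasome gene of 22 (log2 0.67, adjusted p = 0.0494), where 0.436% of all genes rose. At an unadjusted p under 0.05 in limma 5 of the 22 were higher and 0 lower. Of the 22, 21 were above 0 (median 0.16). That median was 0.0015 with replicate 1 alone, and the call of PSMC4 ended without DMSO replicate 1 or 2 or compound 40 replicate 2 or 3 (0.54 or more). LAMP2, a lysosomal membrane protein, was called lower on 1 probe set (log2 -0.84, adjusted p = 0.0448), but its other 3 gave 0.21, -0.068 and 0.028, and the call ended without any single array except compound 40 replicate 1 (-0.57).

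**Figure D4:**
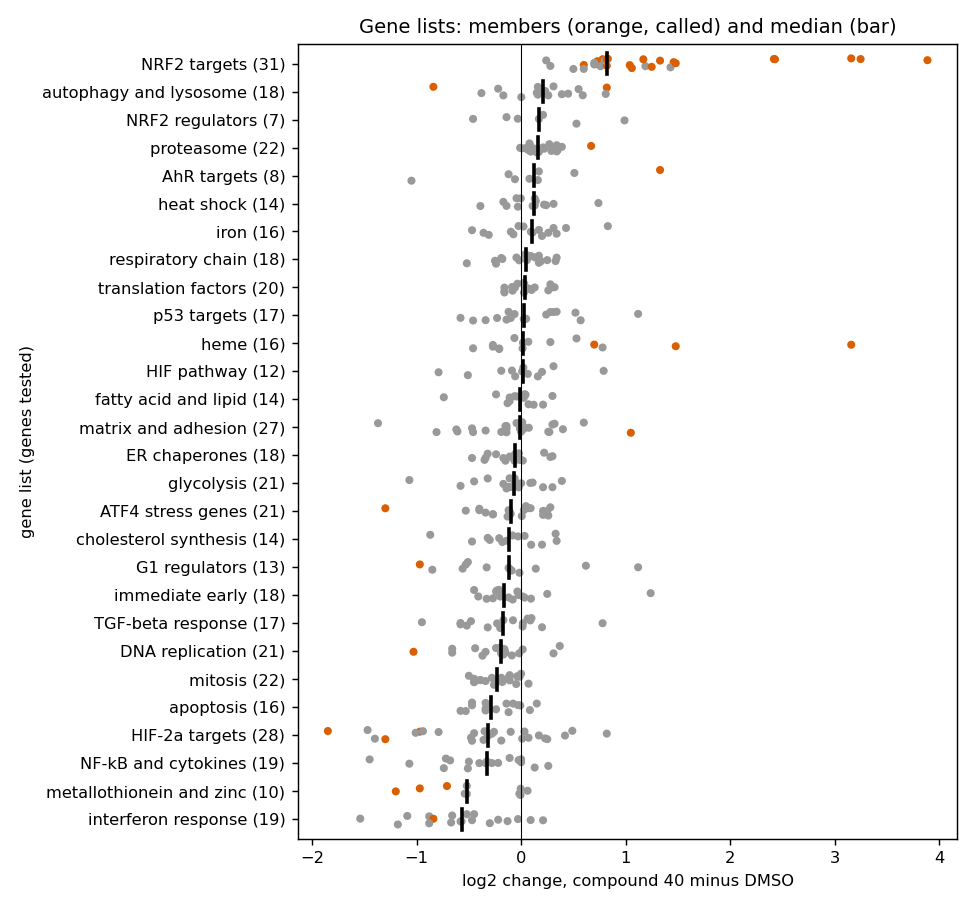
Log2 change of compound 40 against DMSO (horizontal) for every tested member of 28 gene lists (rows, with the number of genes tested); orange points are called genes and the black bar is the list's median. The NRF2 targets have the highest median (0.82) and the interferon response genes the lowest (-0.57).

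Among the named genes outside these lists the largest rises included NRCAM, SLC12A8, GCNT3 and TRIM16. NRCAM, a neuronal adhesion molecule, was at the floor of 20 on all DMSO arrays and measured 56.9, 64.2 and 87.8 with compound 40, at least 3.42-fold higher (adjusted p = 0.00353). SLC12A8, a solute carrier, measured 123, 92.2 and 126 with DMSO and 265, 385 and 319 with compound 40 (2.84-fold, adjusted p = 0.00468). GCNT3, a mucin glycosyltransferase, rose from 129, 98.6 and 114 to 248, 363 and 304 (2.66-fold, adjusted p = 0.000167). For all 3 genes every treated array was above every DMSO array. TRIM16, an E3 ligase, rose 2.57-fold from 357, 669 and 663 to 1070, 1550 and 1620 (adjusted p = 0.0131). FN1, fibronectin, rose 2.06-fold from 2550, 1830 and 2190 to 5290, 3990 and 4260 (log2 1.05, SE 0.19, adjusted p = 0.00853), and HGD, an enzyme of tyrosine breakdown, 2.14-fold (adjusted p = 0.0323). FN1 was the called member of 27 matrix and adhesion genes (median -0.011), where 0.436% of all genes rose. At an unadjusted p under 0.05 in limma 2 of the 27 were higher and 4 lower (5.85% and 6.72% of all genes were). FN1 and SLC12A8 lost their calls without DMSO replicate 2 (0.92 and 1.36), TRIM16 without DMSO replicate 1 or compound 40 replicate 2 or 3 (1.06) and HGD without DMSO replicate 2 or 3 or compound 40 replicate 2 or 3 (0.83). Chosen after their values were seen, ASPH, an aspartyl hydroxylase, rose from 1830, 1980 and 1930 to 3690, 3470 and 4300 (log2 0.99, adjusted p = 5.05e-05), and NMRAL2P, a pseudogene, from 34.5, 35.9 and 45.2 to 111, 141 and 115 (log2 1.67, adjusted p = 0.000199). Also chosen in this way, GPC1 went from 37.2, 20 and 90.1 to 153, 173 and 202 (log2 2.1, adjusted p = 0.017), a larger rise than that of NRCAM. ANXA10 went from 20, 20 and 39.6 to 88.8, 76.8 and 89.2 (log2 1.75, adjusted p = 0.00797).

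Outside the lists, falls among the named genes included SERPINA1, NMU, ANXA3 and COXFA4L3. SERPINA1, alpha-1-antitrypsin, measured 792, 788 and 719 with DMSO and 327, 404 and 309 with compound 40, 2.23-fold lower (log2 -1.15, SE 0.20, adjusted p = 0.00567). NMU, a neuropeptide precursor, went from 227, 219 and 287 to 98.5, 96.3 and 91.3, 2.54-fold lower (adjusted p = 0.00659). On both genes the arrays of each group were close together and the groups far apart, and both stayed called whichever array was left out. ANXA3, an annexin, fell 3.14-fold from 822, 887 and 412 to 341, 210 and 135 (adjusted p = 0.0473), COXFA4L3 2.59-fold (adjusted p = 0.0234) and CTHRC1, a secreted collagen-repeat protein, 2.07-fold (adjusted p = 0.0248). QNG1, an enzyme of queuosine salvage, fell 2.15-fold (adjusted p = 0.0139) and KDSR, an enzyme of ceramide synthesis, 2.02-fold (adjusted p = 0.0391). Both had their lowest value in replicate 2 (149 and 73.4). The fall of QNG1 was seen on 1 probe set only. Its other probe set had means of 234 with DMSO and 235 with compound 40 (log2 -0.013) and was not called. ANXA3 (-1.32) and COXFA4L3 (-1.22) lost their calls without DMSO replicate 1 or 2 or compound 40 replicate 2 or 3, CTHRC1 (-0.96) and KDSR (-0.68) without any single array except compound 40 replicate 1, and QNG1 (-0.75) without DMSO replicate 1 or 2 or compound 40 replicate 2. Of the 240 probe sets called, 18 carry no gene in the annotation used and are not described here.

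Set beside the other 3 compounds, at most 7 of 31 NRF2 targets were called lower with compound 40 than with compounds 41 or 76. Called higher than with compound 77 were 12. PTGR1, which lay between -0.69 and 0.18 of compound 77 on the log2 scale (95% interval), and NQO1 were not among the 12. These 3 pairs share the compound 40 arrays, and doses and times are not given, so they compare the arrays as treated and not potencies. Probe sets called numbered 207 against compound 41 (0.591%), 44 against compound 76 (0.126%) and 154 against compound 77 (0.44%). With p-values adjusted over the 3 pairs together, the counts were 148, 63 and 135. Adjusted p-values printed for these pairs in the paragraphs that follow are of this joint kind. All other counts and shares of called genes, and calls kept or lost with 1 array left out, rest on adjustment within each pair.

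HMOX1 measured 725, 1240 and 568 with compound 40, 3580, 2540 and 1920 with compound 41, 1710, 3710 and 2630 with compound 76 and 90.7, 128 and 111 with compound 77. The compound 40 arrays lay below all arrays of compounds 41 and 76 and above all of compound 77, with log2 differences of -1.70 (adjusted p = 0.00466), -1.68 (adjusted p = 0.0051) and 2.87 (adjusted p = 9.52e-06). GCLM showed the same order, with differences of -0.69 (adjusted p = 0.00577), -0.86 (adjusted p = 0.000667) and 0.81 (adjusted p = 0.00129), and GCLC with -0.76 (adjusted p = 0.0185), -0.88 (adjusted p = 0.00545) and 0.95 (adjusted p = 0.00333). AKR1C2 and AKR1C1 were 2.29 and 2.12 lower on the log2 scale than with compound 76 (differences of -2.29 and -2.12, adjusted p = 0.000169 and 0.0051) and 1.84 and 2.22 higher than with compound 77 (adjusted p = 0.00251 and 0.00372). PTGR1 was lower than with compounds 41 and 76 (-1.19 and -1.14, adjusted p = 0.01 and 0.014). AKR1C3 (3.65, adjusted p = 0.000244), AKR1B10 (2.83, adjusted p = 0.00938), TALDO1 (0.82, adjusted p = 0.00112), UGDH (0.83, adjusted p = 0.0318), TKT (0.76, adjusted p = 0.0471), SRXN1 (1.30, adjusted p = 0.0482) and TXNRD1 (0.67, adjusted p = 0.0424) were higher than with compound 77. NQO1 differed less: it measured 3310, 4540 and 4470 with compound 77, and its differences from compounds 41, 76 and 77 were -0.32, -0.35 and 0.15, none of them called, with 95% intervals of -0.58 to -0.06, -0.61 to -0.089 and -0.11 to 0.42.

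Over the list, 6 of 31 targets were lower than with compound 41 (0.549% of all genes were), 7 were lower than with compound 76 (0.139%) and 12 higher than with compound 77 (0.264%), counted with p-values adjusted within each pair; adjusted over the 3 pairs, AKR1C2 against compound 41 no longer passed (adjusted p = 0.0589) and the others did. The medians were -0.37, -0.46 and 0.70. At an unadjusted p under 0.05 in limma, 16 targets were lower than with compound 41 and 18 lower than with compound 76. Over all genes 7.6% and 6.15% were, and 0 targets were higher in either pair. Against compound 77, 19 were higher and 1 lower (5.59% and 6.67% of all genes were). HMOX1 and GCLM against compounds 41 and 77, GCLM and AKR1C2 against compound 76, and GCLC, AKR1C1, AKR1C2, AKR1C3 and TALDO1 against compound 77 stayed called whichever array was left out. The call of HMOX1 against compound 76 ended without compound 76 replicate 2 or 3 or compound 40 replicate 3 (-1.41), those of GCLC and AKR1C1 without compound 76 replicate 3 (-0.80 and -1.82), and that of AKR1B10 against compound 77 without compound 40 replicate 3 (2.00). GCLC against compound 41 lost its call without compound 41 replicate 1 or 3 (-0.68), and PTGR1 against it without compound 41 replicate 3 or compound 40 replicate 3 (-1.03). PTGR1 against compound 76 lost its call without compound 76 replicate 2 or 3 or compound 40 replicate 3 (-0.98). Against compound 77, TXNRD1 (0.52) lost its call without compound 77 replicate 1 or 3 or compound 40 replicate 2 or 3, and UGDH (0.76) without compound 77 replicate 1 or 2 or the same compound 40 arrays. TKT (0.69) and SRXN1 (1.07) were called only with all arrays or without compound 40 replicate 1.

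**Figure D5:**
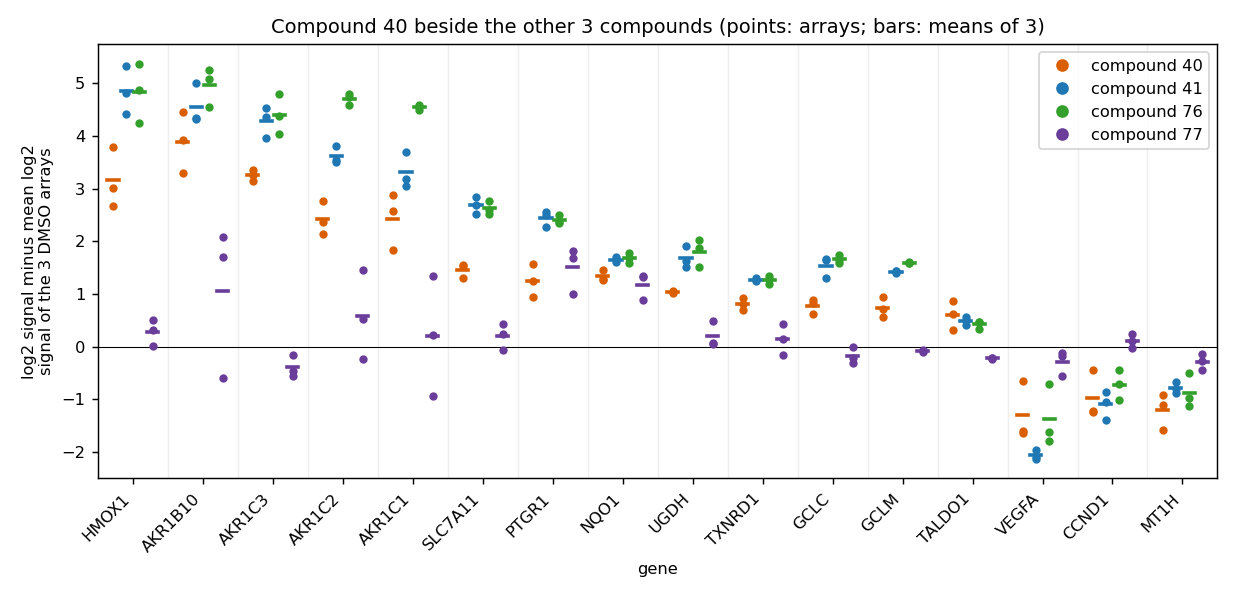
Log2 normalised signal minus the mean of the 3 DMSO arrays (vertical) for 16 genes with compounds 40, 41, 76 and 77; points are arrays and bars are means of 3. HMOX1 and GCLM lie lower with compound 40 than with compounds 41 and 76 and higher than with compound 77, while NQO1 lies between 0.88 and 1.77 with all 4.

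No HIF-2a target was called between compound 40 and compounds 41 or 76, and 1 of 28, CCND1, was lower than with compound 77 (0.311% of all genes were). At an unadjusted p under 0.05 in limma, 2 targets were higher and 2 lower than with compound 41 (5.45% and 7.6% of all genes were), and 2 were higher and 1 lower than with compound 76 (3.76% and 6.15%). VEGFA measured 293, 263 and 270 with compound 41, 706, 376 and 334 with compound 76 and 1050, 1010 and 779 with compound 77, against 731, 368 and 380 with compound 40. The differences of compound 40 from them were 0.76 (95% interval 0.16 to 1.37, adjusted p = 0.317), 0.068 (-0.54 to 0.68) and -1.0 (-1.61 to -0.40, adjusted p = 0.165), so none was called, although compound 40 lay above compound 41 and below compound 77 on every array. CCND1 measured 740, 809 and 888 with compound 77 and was lower with compound 40 on every array (log2 -1.07, SE 0.19, adjusted p = 0.0118); this call ended without compound 77 replicate 2 or 3 or compound 40 replicate 2 or 3 (-0.94), and with replicate 1 alone the difference was -0.55. Its differences from compounds 41 and 76 were 0.13 (-0.27 to 0.52) and -0.25 (-0.64 to 0.15). EPAS1 mRNA measured 542, 250 and 314 with compound 41, 445, 261 and 253 with compound 76 and 517, 463 and 404 with compound 77; compound 40 differed by 0.34 (-0.15 to 0.83), 0.52 (0.026 to 1.01, adjusted p = 0.43) and -0.055 (-0.55 to 0.44), with no call. MT1H was lower with compound 40 than with compound 77 (log2 -0.91, adjusted p = 0.0291), a call that ended without compound 77 replicate 2 or 3 or compound 40 replicate 1 or 2 (-0.72).

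Outside the NRF2 and HIF-2a lists, other genes were called between compounds, some of them in more than 1 pair. Against compound 41, compound 40 was lower for ACKR3, a chemokine receptor, at 58.9, 63.7 and 41.8 against 194, 167 and 273 (log2 -1.94, adjusted p = 0.0162), and for GBP1, an interferon-induced GTPase (log2 -2.09, adjusted p = 0.0128). GBP1 was lower than with compound 77 as well (log2 -2.19, adjusted p = 0.00811; lost without compound 77 replicate 2 or compound 40 replicate 2, -1.8). Compound 40 was higher than compound 41 for SYTL3 (1.21, adjusted p = 0.00373), RASEF (1.11, adjusted p = 0.00504) and AMPD2 (0.98, adjusted p = 0.00808), which stayed called whichever array was left out. In that pair 0.179% of all genes were higher. Against compound 76, where 0.0198% of genes were higher, USP16, a deubiquitinase of histone H2A, measured 675, 561 and 630 with compound 40 and 270, 279 and 279 with compound 76 (log2 1.17, SE 0.12, adjusted p = 2.66e-05). It was also called with replicate 1 alone, as was ROMO1, a mitochondrial membrane protein (0.81, adjusted p = 0.00432). Against compound 77, compound 40 was higher for UGT1A6, a glucuronosyltransferase whose probe set may read other transcripts of its locus, at 1410, 999 and 1220 against 323, 193 and 297 (log2 2.18, adjusted p = 0.00432). VCAM1, an adhesion molecule, measured 191, 209 and 192 with compound 40 against 514, 489 and 515 with compound 77 (log2 -1.36, adjusted p = 0.00946), and TGM2, a transglutaminase, was also lower (-1.5, adjusted p = 0.0162). ACKR3 lost its call without compound 41 replicate 1 or 3 or compound 40 replicate 3 (-1.74), and GBP1 without compound 41 replicate 2 or compound 40 replicate 2 (-1.70). VCAM1 lost its call without compound 77 replicate 3 (-1.34) and TGM2 without compound 77 replicate 2 or compound 40 replicate 2 (-1.36).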

How the data were processed

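The labels' protocols describe DNase-treated, column-purified total RNA and biotin-labelled cRNA on Affymetrix U133 Plus 2.0 arrays. The deposited values are linear signal intensities per probe set; MAS5, per the submitters' processing notes, summarised the probes, of unstated version and scaling. A floor of 20 and a ceiling of 16000 are named in the labels' protocols, but 645676 deposited values lay below 20 and none above 16000.

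The 62 control probe sets were left out, the 26 arrays were quantile normalised, and values were limited to 20 to 16000 and turned to log2. Probe sets at or above their array's median on at least 3 arrays were kept. limma 3.58.1 (R 4.3.3; lmFit, eBayes with trend) was fitted to the 24 arrays of 8 groups, with 16 residual degrees of freedom, and Benjamini-Hochberg adjustment over all 35013 probe sets; "called" means an adjusted p under 0.05. Per-array values are normalised signals; fold changes are of log2 means, and one against a group at the floor is a lower bound. The fit was tested on simulated data.

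Probe sets were named from GEO's platform annotation, of which 41043 of 41097 single-gene entries were found in RefSeq. Named were the 15 largest rises and falls among called genes with non-overlapping arrays and a brighter group at or above the 70th percentile, called members of each list (up to 6), all HIF-2a target, NRF2 target, iron and heme genes with EPAS1, VHL, HIF1A and ARNT, and the 6 largest differences each way between compounds; others are said to be chosen after their values were seen. Of these 137 genes 48 were called against DMSO. Values given beside a call that ended are the log2 changes nearest to 0 with 1 array left out. Members, lists and tests were chosen with earlier results of these data known. Alternatives were other scalings, no filter, no floor, the groups alone, a replicate block, array weights, each array left out, replicate 1 alone and averaged controls. The number of arrays limits the precision.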

Additional observations from a re-analysis of the deposited data

Results flagged for a closer look

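The following effects of compound 40 differed from those of another compound by the test of the difference itself, in limma with adjustment within each pair, among genes called against DMSO. Values are log2 signal with compound 40 minus that with the other compound, 3 arrays each.

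Less was measured with compound 40 than with compound 41 for HMOX1 (-1.70), PTGR1 (-1.19), AKR1C2 (-1.19), MRE11 (-0.86), GCLC (-0.76) and GCLM (-0.69). MRE11, of double-strand break repair, is the one of these that fell against DMSO; its call against compound 41 ended without any single array except compound 40 replicate 1, at -0.72 or further from 0. AKR1C2 had an adjusted p of 0.046 here and 0.0589 when adjusted over the 3 pairs, and was called in none of the 6 fits with 1 array left out.

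Less was also measured than with compound 76 for AKR1C2 (-2.29), AKR1C1 (-2.12), HMOX1 (-1.68), PTGR1 (-1.14), GCLC (-0.88) and GCLM (-0.86).

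More was measured than with compound 77 for AKR1C3 (3.65), HMOX1 (2.87), AKR1B10 (2.83), AKR1C1 (2.22), AKR1C2 (1.84), SLC12A8 (1.61), GCLC (0.95), UGDH (0.83), TALDO1 (0.82), GCLM (0.81), TKT (0.76) and TXNRD1 (0.67). Less was measured than with compound 77 for COXFA4L3 (-1.43), NMU (-1.15), KDSR (-1.10), CCND1 (-1.07) and MT1H (-0.91). SLC12A8 stayed called whichever array was left out (1.41 or more). COXFA4L3 (-1.15 nearest to 0) lost its call without compound 77 replicate 2 or 3 or compound 40 replicate 2 or 3, NMU (-0.89) without compound 77 replicate 1 or 3 or the same compound 40 arrays, and KDSR (-0.77) without any single array except compound 40 replicate 1.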

How the results depend on the processing

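No named gene called against DMSO changed direction under any alternative run. Counts of called probe sets, given in the order DMSO, Blk, compounds 41, 76 and 77, were 240, 341, 207, 44 and 154. With median scaling they were 100, 174, 121, 40 and 49, and without the filter on low signals 149, 226, 138, 28 and 64. With only the 2 groups compared they were 6, 3, 0, 0 and 3; limma then found 3511 probe sets at an unadjusted p under 0.05 for compound 40 against compound 41 and 2692 for compound 40 against compound 76. Array weights gave 471, 584, 441, 149 and 329, and replicate 1 of compound 40 alone, assumed to vary like the other groups, gave 25, 26, 17, 17 and 14. Against DMSO and Blk averaged, 732 were called. Leaving out 1 array gave 50 to 622, 126 to 739, 57 to 529, 11 to 241 and 33 to 459; the highest counts came without compound 40 replicate 1. With signals as deposited the share of higher calls moved from 119 of 240 to 154 of 214 against DMSO, and was 222 of 325, 123 of 199, 24 of 47 and 91 of 127 for the others, where the median change over all probe sets also shifted (by 0.074 against DMSO and 0.11 for compound 40 against compound 41). Median scaling gave 18 of 121 higher against compound 41 and 30 of 49 against compound 77.

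Arrays with the same replicate number shared part of their deviations, though weakly. The correlations for compound 40 and DMSO were 0.141, 0.0769 and 0.0964. With Blk and the other compounds included they ran from 0.0507 to 0.223, and every array correlated best with its own number. The main fit has no term for the replicate number, so these shared differences stayed in its scatter between arrays. With the replicate block, 534, 728, 507, 135 and 354 probe sets were called. Of the 48 named genes called against DMSO, 48 kept their call with the block, the array weights and the averaged controls, 46 without floor or ceiling, 42 with signals as deposited, 27 with median scaling, 24 without the filter, 7 with replicate 1 alone and 2 with the groups alone; 16 were called in all 6 fits with 1 array left out. Signals near the floor of 20 limit what can be seen of dim genes.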
